A study of Mus musculus with 2 samples.

Results

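Bone morphogenetic proteins (BMPs) and the proteins that hold them in check were followed gene by gene through the cell types of embryonic mouse skin. The 10 genes, of 32285 in the deposited matrices, were chosen by name. They comprise the ligands Bmp2, Bmp3, Bmp4, Bmp5 and Bmp7, the secreted antagonists Grem1, Nog, Fst and Sostdc1, and the membrane pseudoreceptor Bambi. The skin came from the back and flank of mouse embryos at stage E14.5. One library was made from Wntless mutant embryos, in which the K14Cre transgene had been bred to Wntless fl/fl, a floxed allele of Wls, and 1 library from wildtype littermates. K14Cre is active in epidermal keratinocytes, so the allele is targeted there and not in the dermis, and Wls is the protein that carries Wnt ligands out of the cell. A library stood for 2 to 3 embryos of like genotype, whose trypsin-dissociated cells were pooled, given DAPI and sorted by flow cytometry. Both were made in parallel with droplet-based 3' chemistry and sequenced together.

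BMPs are secreted ligands that bind paired type I and type II receptors and signal through Smad proteins to genes such as those of the Id family. Secreted antagonists bind the ligands outside the cell and keep them from the receptors. In skin, hair follicles begin as epidermal thickenings, the placodes, each above a cluster of dermal cells, the dermal condensate. BMPs from both layers are known to restrain follicle formation, while some antagonists permit it.

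The mutant library held 10449 cell barcodes with a median of 14602 UMIs, and the wildtype library 9065 barcodes with a median of 11341 UMIs. The libraries shared 19 barcodes. The authors' lists put 5028 mutant and 5300 wildtype cells in the dermis. The epidermis was 1 cluster of 172 mutant and 552 wildtype cells led by Krt14, Krt15 and Krt5, and the clustering was run without the 10 genes. Wls, the check of the label, had 31 mutant and 1099 wildtype UMIs in the epidermis, or 7.21 and 122 CPM (UMIs of the gene per 1000000 UMIs of the class), a log2 ratio of -4.08 (-4.64 to -3.56). There was 1 library per genotype, so no difference had a replicate check and no test was made. Each ratio compares these libraries, mutant over wildtype, and each interval is a 95% interval for counting error only. Since 3' UMI counts do not scale with transcript length, levels of different genes are given in CPM without correction for length.

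In the dermis as a whole, Grem1, Nog and Bmp4 were lower in the mutant library, Fst and Bambi were higher, and the other 5 genes differed by less than 1.5-fold, the fold used here to call a gene higher or lower. Of all 15609 genes with at least 20 UMIs, 5.64% were called lower and 10.9% higher. The median log2 ratio over the 10 genes was -0.05, beside 0.03 over all genes. In the epidermis, Bmp2 and Bmp4 were lower and Fst was higher among the 6 genes with at least 20 UMIs, and 3 genes lay between. There 15.8% of 11574 genes were called lower and 7.72% higher, and the medians were -0.50 for the 6 genes and -0.09 for all genes.

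**Figure D1:**
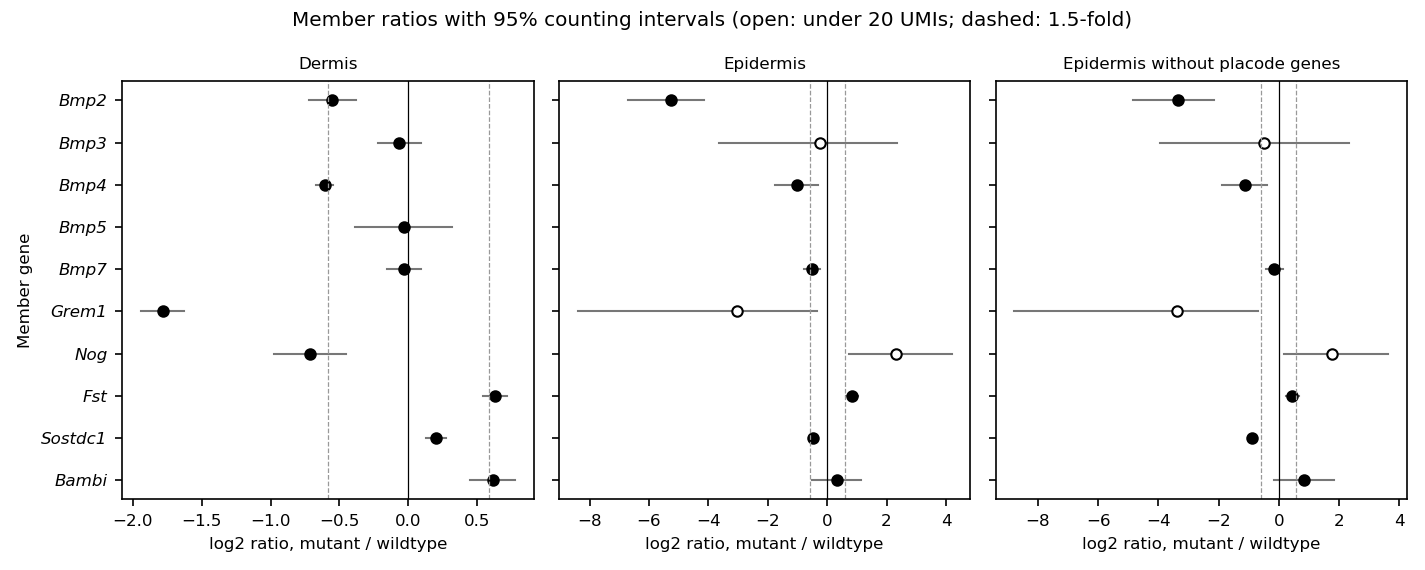
Log2 ratio of mutant over wildtype level for each of the 10 genes (rows) in the dermis, the epidermis and the epidermal cells without placode genes, with 95% counting intervals as lines. Open points rest on under 20 UMIs and dashed lines mark 1.5-fold. Grem1 stands farthest to the left in the dermis at -1.78 and Bmp2 in the epidermis at -5.26.

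Dermal cells were also divided by marker counts at an equal depth of 6000 UMIs. Condensate cells carried at least 3 of 8 core condensate genes (Sox2, Foxd1, Sox18, Gal, Tbx18, Prdm1, Alx4 and Cxcr4). Upper cells carried at least 2 more of 8 upper markers, such as Lef1, Dkk1 and Twist2, than of 8 lower markers, such as Mfap5, Ogn and Dpt, and lower cells the reverse. This gave 2 mutant and 243 wildtype condensate cells, 1153 and 2400 upper cells, 1579 and 1016 lower cells, and 2176 and 1381 others. The markers themselves differed between the libraries. In the dermis 7 of 8 core condensate genes and 4 of 8 upper markers were lower in the mutant, with medians of -4.40 and -1.26, and 8 of 8 lower markers were higher with a median of 0.94. Class sizes are therefore not compared, and the part of these marker differences in the ratios within a class was not tested. A cluster led by Foxd1, Sox18 and Gal held 1 mutant and 1101 wildtype cells, so it cannot be told apart from a feature of the wildtype library.

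Bmp4, a ligand that activates Smad signalling, was the most abundant member in wildtype condensate cells. It reached 538 CPM there (510.3 to 567) from 1380 UMIs, 7.40-fold the 72.8 CPM of wildtype upper cells. At 6000 UMIs per cell, 79.0% of condensate cells had a Bmp4 UMI (73.3 to 84.0%, exact Clopper-Pearson interval; 88.5% without thinning). Erythroid cells, which should lack the gene, gave 0.697% in the mutant and 0 of 468 in the wildtype library, which allows up to 0.641%. Condensate cells were 4.82% of the wildtype dermal cells with 6000 UMIs and held 33.1% of their Bmp4 UMIs. Across wildtype dermal cells the Bmp4 level was higher the more core condensate genes a cell had, at 38.4, 54.4, 249, 434 and 673 CPM for 0, 1, 2, 3 to 4 and 5 to 8 genes.

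The sign of the Bmp4 difference depended on which dermal cells were counted. In the whole dermis Bmp4 was at 44.3 CPM in mutant and 67.5 CPM in wildtype cells, from 3598 and 4247 UMIs, a log2 ratio of -0.61 (-0.67 to -0.54). Without the 233 mutant and 592 wildtype cells that had 2 or more core condensate genes before thinning, the log2 ratio was 0.16. Without the cluster led by condensate genes, a setting added after seeing the data, it was 0.24. That setting left out 1 mutant and 1083 wildtype dermal cells, more than the 243 wildtype condensate cells. At 6000 UMIs, among cells with no core condensate gene it was 44.1 CPM in mutant and 38.4 CPM in wildtype cells, a log2 ratio of 0.20 (0.11 to 0.29). With 1 core gene the log2 ratio was -0.28 (-0.44 to -0.12), and with 2, in 37 mutant and 130 wildtype cells, it was -1.72 (-2.20 to -1.28). Upper cells had 75.5 and 72.8 CPM with overlapping counting intervals, while the dermal cells that were neither upper nor lower had 51.4 CPM in mutant and 28.5 CPM in wildtype cells, a log2 ratio of 0.85 (0.71 to 0.99). Lower cells had the least, 10.9 and 8.55 CPM.

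Bmp4 had the most UMIs of the 10 genes in wildtype condensate and Grem1 the dermal ratio farthest from 0, so the 250 bases before their transcript starts are shown. Bmp4 lies on the minus strand at chr14:46383520-46390669 and Grem1 on the minus strand at chr2:113746164-113758646 (GENCODE mouse release 21, GRCm38). The sequences are RefSeq promoters of GRCm38.p6, at chr14:46390670-46390919 and chr2:113758649-113758898, written 5' to 3' on the gene's strand. Such entries were kept for 3 of the 10 genes, and whether RefSeq holds one for each of the others is not reported here.
Bmp4: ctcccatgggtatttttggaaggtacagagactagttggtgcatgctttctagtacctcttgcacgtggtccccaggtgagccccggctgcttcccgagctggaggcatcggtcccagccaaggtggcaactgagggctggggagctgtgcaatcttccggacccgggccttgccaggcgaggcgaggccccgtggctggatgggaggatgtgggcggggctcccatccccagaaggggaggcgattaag
Grem1: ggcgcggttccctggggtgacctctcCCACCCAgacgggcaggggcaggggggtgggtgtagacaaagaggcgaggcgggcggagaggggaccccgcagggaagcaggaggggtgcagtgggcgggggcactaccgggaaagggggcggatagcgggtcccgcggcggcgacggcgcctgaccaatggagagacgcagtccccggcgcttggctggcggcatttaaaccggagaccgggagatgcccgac
A search of both strands for the Tcf/Lef core CTTTGA or TCAAAG found 0 matches in either window, and 13.8% of 32851 promoters of that length hold one. The Gli core TGGGTGG or CCACCCA, which overlaps no letters of the first motif, occurred 0 times for Bmp4 and 1 time for Grem1, in capitals, and in 8.11% of promoters. A match describes these letters and is no site, and its absence covers this window alone.

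Bmp7, a ligand that can also pair with Bmp2 or Bmp4, and Bmp3, a divergent ligand known to oppose other BMPs, were likewise concentrated in wildtype condensate cells. Bmp7 had 110.4 CPM (97.9 to 124) in condensate against 11.3 CPM in upper cells, 9.78-fold. Bmp3 had 103 CPM (90.9 to 116) against 0.50 CPM, 206-fold, from 264 and 15 UMIs. Both were higher with more core condensate genes, Bmp7 at 10.1, 12.1, 31.9, 92.0 and 134 CPM and Bmp3 at 5.74, 5.90, 8.46, 63.0 and 155 CPM for the same bins. Of the 106 condensate cells with a Bmp7 UMI, 96 also had Bmp4 (90.6%, beside 79.0% of all condensate cells). Of the 67 with Bmp3, 55 had Bmp4 (82.1%). These are descriptions of shallow single-cell counts.

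**Figure D2:**
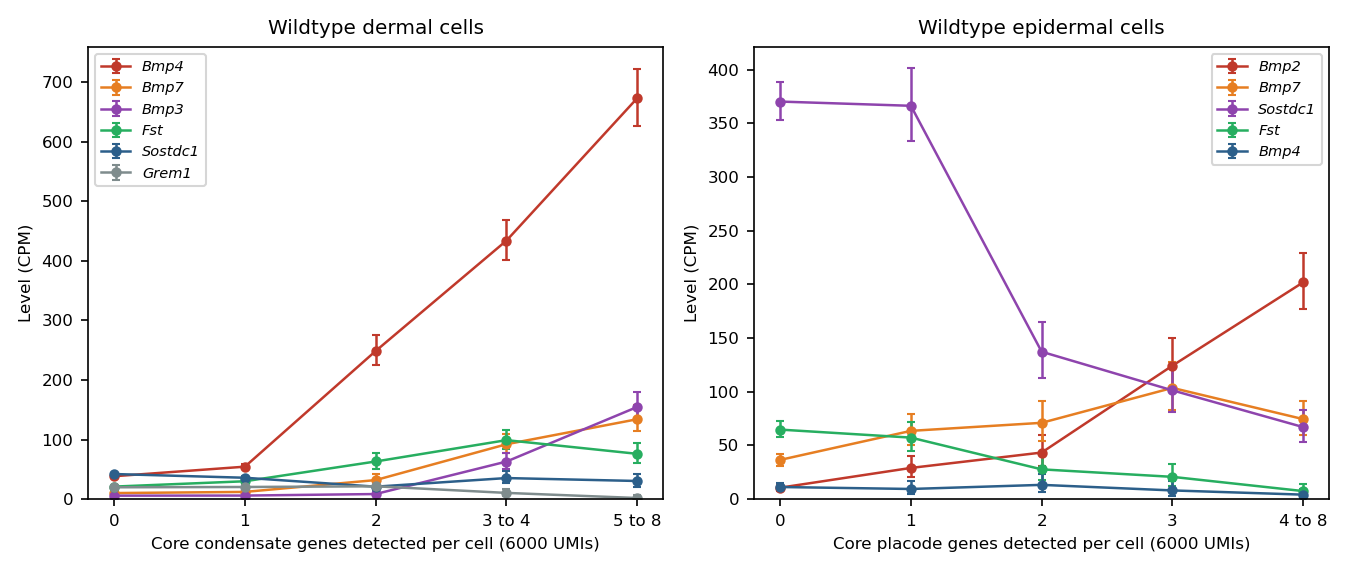
Level in CPM, with 95% Poisson intervals, of 6 members in wildtype dermal cells by the number of core condensate genes detected (left) and of 5 members in wildtype epidermal cells by the number of core placode genes detected (right). Bmp4 reached 673 CPM in dermal cells with 5 to 8 core genes, and Bmp2 reached 202 CPM in epidermal cells with 4 to 8, where Sostdc1 was at 67.0 CPM.

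Over the whole dermis these ligands hardly differed between the libraries. Bmp7 was at 14.8 CPM in mutant and 15.2 CPM in wildtype cells (log2 ratio -0.03, -0.16 to 0.09), and Bmp3 at 9.39 and 9.83 CPM (-0.07, -0.22 to 0.09). The wildtype total included the condensate, which held 30.2% of dermal Bmp7 UMIs and 43.3% of dermal Bmp3 UMIs there. Among dermal cells with no core condensate gene, Bmp7 was at 14.46 CPM in mutant and 10.1 CPM in wildtype cells, a log2 ratio of 0.52, and Bmp3 at 9.15 and 5.74 CPM, a log2 ratio of 0.67. Bmp7 in the cells neither upper nor lower was at 11.9 CPM in mutant and 7.09 CPM in wildtype cells, a log2 ratio of 0.74 (0.46 to 1.04).

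Away from the condensate, Bmp3 lay almost entirely in lower dermis in both libraries. Lower cells had 28.8 CPM in mutant and 28.0 CPM in wildtype cells (0.04, -0.15 to 0.24), while upper cells had 4 and 15 UMIs. They held 95.9% of the mutant dermal Bmp3 UMIs with 32.2% of the dermal cells. Within lower cells the level was 46.9 and 52.1 CPM in those with at least 5 more lower than upper markers.

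Bmp2 and Bmp5 were called lower in the mutant within lower dermis, where both had the largest share of their dermal UMIs. There 2.80% of 13626 genes were called lower and 7.27% higher, and of the 10 members 2 were lower, 2 higher and 6 between (median 0.18). Bmp2, a close relative of Bmp4, was at 14.0 CPM in mutant and 24.5 CPM in wildtype cells, from 353 and 275 UMIs, a log2 ratio of -0.81 (-1.04 to -0.57). Bmp5, a relative of Bmp7, was at 4.24 and 6.94 CPM from 107 and 78 UMIs, a log2 ratio of -0.71 (-1.14 to -0.27). The share of lower cells with a Bmp2 UMI at equal depth was 6.52% in the mutant (5.36 to 7.86%) and 10.6% in the wildtype library (8.80 to 12.7%), and 13.0% and 15.7% without thinning.

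The Bmp2 level was lower in the mutant in upper and other dermal cells too. Upper cells had 0.837 and 3.96 CPM, from 16 and 119 UMIs, a log2 ratio of -2.24 (-3.10 to -1.49). Cells neither upper nor lower had 4.52 CPM in mutant and 10.7 CPM in wildtype cells, a log2 ratio of -1.25 (-1.56 to -0.94). The ratio for the whole dermis, 6.65 against 9.75 CPM, was -0.55 (-0.72 to -0.38) and stayed inside 1.5-fold, while it was -1.02 with upper, lower and other cells weighted alike. Its wildtype level was highest at 2 more lower than upper markers, 36.9 CPM against 15.9 CPM in the mutant, and at 5 or more the levels were 11.8 CPM in mutant and 13.9 CPM in wildtype cells.

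Grem1, which binds Bmp2, Bmp4 and Bmp7, was an upper dermal gene in the wildtype library, and its level there was lower in the mutant. The whole dermis had 454 mutant and 1211 wildtype UMIs. Upper cells had 9.10 CPM in mutant and 32.6 CPM in wildtype cells, from 174 and 980 UMIs, a log2 ratio of -1.84 (-2.08 to -1.61). Wildtype upper cells held 20.4-fold the Grem1 level of wildtype lower cells, against 3.43-fold in the mutant. Lower cells had few UMIs, 67 in the mutant and 18 in the wildtype library, at 2.66 and 1.60 CPM. Their log2 ratio of 0.73 counted as higher, but its interval ran from -0.04 to 1.57.

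Along the marker difference, the Grem1 levels of the libraries parted step by step. Where both marker sets were equal in number, Grem1 was at 4.59 CPM in mutant and 7.61 CPM in wildtype cells. At 1, 2 and 3 more upper markers it was at 6.44, 10.1 and 7.88 CPM in mutant cells and 15, 24.7 and 36.3 CPM in wildtype cells. At 4 or more it was at 5.14 and 39.1 CPM, a log2 ratio of -2.93 (-4.15 to -1.93), in 96 mutant and 689 wildtype cells. At equal depth, 4.34% of mutant upper cells (3.24 to 5.68%) and 14.8% of wildtype upper cells (13.4 to 16.3%) had a Grem1 UMI, and 10.9% and 24.2% without thinning.

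Grem1 did not mark the condensate. Wildtype condensate cells had 6.63 CPM from 17 UMIs, 4.92-fold lower than upper cells, and its level across bins of core condensate genes was 19.8, 20.3, 21.5, 10.4 and 1.79 CPM. In cells with no core condensate gene it was at 5.72 CPM in mutant and 19.8 CPM in wildtype cells, a log2 ratio of -1.79, about the value of the whole dermis. The dermal log2 ratio lay between -1.84 and -1.34 in every alternative setting tried.

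Nog, which keeps the same ligands from their receptors, followed Grem1 at a lower level. The whole dermis had 2.69 CPM in mutant and 4.41 CPM in wildtype cells, from 218 and 277 UMIs, a log2 ratio of -0.71 (-0.98 to -0.45). Upper cells had 2.88 and 6.49 CPM, a log2 ratio of -1.17 (-1.63 to -0.74). Where 3 more upper than lower markers were detected the levels were 1.88 CPM in mutant and 7.48 CPM in wildtype cells, and at 1 more they were 3.55 and 3.53 CPM. Wildtype condensate cells had 5 Nog UMIs, 1.95 CPM, 3.33-fold lower than upper cells. In upper dermis as a whole 4 of 8 measured members were lower, 3 lay between and 1 was higher (median -0.76), where 6.51% of 13366 genes were called lower and 8.45% higher and the median of all was 0.00.

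**Figure D3:**
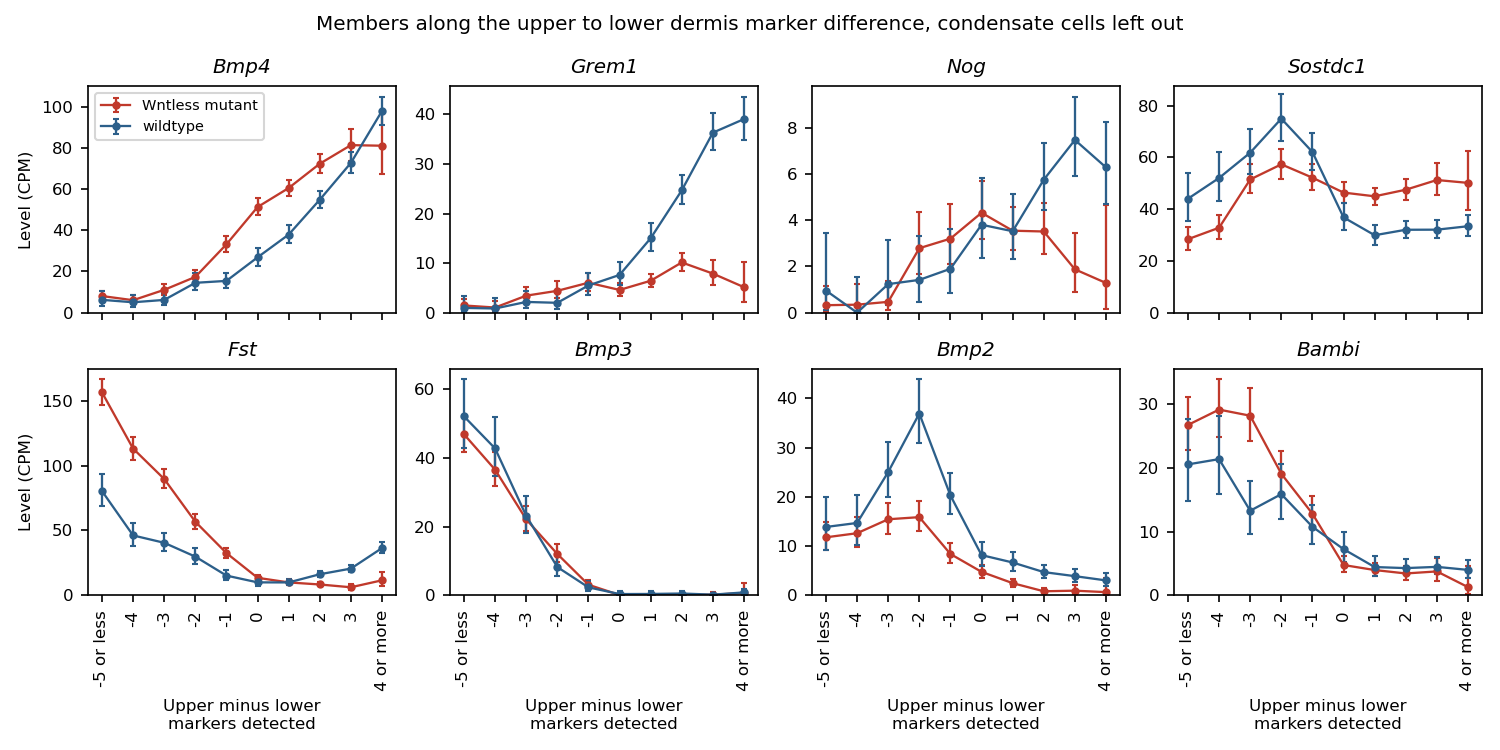
Level in CPM of 8 members, with 95% Poisson intervals, along the number of upper minus lower dermis markers detected per cell, for the mutant (red) and wildtype (blue) libraries, condensate cells left out. Grem1 and Nog part toward the upper end, Fst is higher in the mutant at the lower end and lower at the upper end, and Bmp3 overlaps at -5 or less, at 46.9 CPM in mutant and 52.1 CPM in wildtype cells.

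Fst, which binds activins tightly and some BMPs, went in opposite directions in the upper and lower dermis. Lower cells had 102.6 CPM in mutant and 45.8 CPM in wildtype cells, from 2586 and 514 UMIs, a log2 ratio of 1.16 (1.03 to 1.30). Upper cells had 8.0 CPM in mutant and 23.3 CPM in wildtype cells, from 153 and 699 UMIs, a log2 ratio of -1.54 (-1.80 to -1.29). Whether the ratio differs between the classes was not tested, because there is 1 library per genotype. At equal depth, 29.4% of mutant (27.1 to 31.7%) and 15.5% of wildtype lower cells (13.3 to 17.8%) had a Fst UMI, and 43.5% and 21.8% without thinning. In upper cells the shares were 4.08% and 10.4%, and 9.71% and 16.9% without thinning.

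The Fst crossing lay near the middle of the marker difference. At 5 or more lower markers in excess, Fst was at 156 CPM in mutant and 80.4 CPM in wildtype cells, and at 1 upper marker in excess it was at 9.93 CPM in both. At 3 in excess it was at 6.19 CPM in mutant and 20.6 CPM in wildtype cells, a log2 ratio of -1.73. Wildtype condensate cells had 88.9 CPM (77.8 to 101), 3.82-fold above upper cells. The level over the whole dermis, 41.2 against 26.6 CPM, gave a log2 ratio of 0.63 (0.54 to 0.71), near the 1.5-fold limit of 0.585. It was 0.56 as a mean over cells and 0.96 without cells of 2 or more core condensate genes.

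Bambi, a transmembrane protein that resembles a BMP receptor but lacks its kinase, was a lower dermal gene as well. Lower cells had 25.6 CPM in mutant and 17.2 CPM in wildtype cells, from 646 and 193 UMIs, a log2 ratio of 0.58 (0.34 to 0.82) that lay just short of the limit. Upper cells had 3.35 and 4.26 CPM. The whole dermis had 11.6 CPM in mutant and 7.59 CPM in wildtype cells, a log2 ratio of 0.61 (0.45 to 0.77), which was 0.31 when upper, lower and other cells were weighted alike. In mutant lower cells 87 of the 201 cells with a Bambi UMI also had Fst (43.3%, beside 29.4% of all lower cells), and in the wildtype library 28 of 95 did (29.5%, beside 15.5%).

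Sostdc1, an antagonist that also binds the Wnt co-receptors, was spread over the dermis. Its level was near even between upper and lower cells in the mutant, and lower in upper cells in the wildtype library. Upper cells had 48.7 CPM in mutant and 32.4 CPM in wildtype cells, from 932 and 973 UMIs, a log2 ratio of 0.59 (0.46 to 0.72), just past the limit. Lower cells had 43.1 and 60.5 CPM, a log2 ratio of -0.49 (-0.63 to -0.35). The level of upper over lower cells was thus 0.18 on the log2 scale in the mutant and -0.90 in the wildtype library. At equal depth 23.0% of mutant and 15.5% of wildtype upper cells had a Sostdc1 UMI, and 19.4% and 26.9% of lower cells (without thinning, 43.5% and 26.7% of upper and 32.4% and 37.8% of lower cells). The whole dermis, at 46.3 and 40.3 CPM, differed by 0.20 (0.13 to 0.27).

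Dermal cells that were neither upper nor lower gave 2 members higher, Bmp4 and Bmp7, and 3 lower, Bmp2, Bmp5 and Grem1, of 10 measured. There 5.01% of 13846 genes were called lower and 7.69% higher, and the member median was 0.02. Grem1 was at 5.76 CPM in mutant and 10.2 CPM in wildtype cells, a log2 ratio of -0.83 (-1.12 to -0.53). Fst was at 16.1 and 11.3 CPM, and Nog at 3.72 and 3.18 CPM. Cells off the authors' lists but in clusters made mostly of listed cells, 220 mutant and 130 wildtype, gave log2 ratios of -2.07 for Grem1, 1.09 for Fst and -0.87 for Bmp4. Erythroid markers summed to 65938 CPM in mutant and 74728 CPM in wildtype cells of this class, against 1289 and 536 CPM in the dermis. Their part in these ratios was not tested.

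In the epidermis, Bmp2 was a placode gene in the wildtype library and close to absent in the mutant. Placode cells, with at least 3 of 8 core placode genes (Dkk4, Shh, Fgf20, Edar, Lhx2, Wnt10b, Ltb and Foxi3) at 6000 UMIs, numbered 0 mutant and 140 wildtype. All 8 of those genes were lower in the mutant epidermis, with a median of -3.93. The 140 wildtype placode cells had 352 Bmp2 UMIs, 169 CPM (152 to 188), 11.7-fold the 14.53 CPM of the 309 wildtype cells with at most 1 of the 8 genes. They were 27.9% of the wildtype epidermal cells with 6000 UMIs and held 74.1% of their Bmp2 UMIs. At equal depth 56.4% of them had a Bmp2 UMI (47.8 to 64.8%; 74.3% without thinning).

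The Bmp2 level was lower in the mutant also in cells with few placode genes. In the class with at most 1, 5 of the 8 core placode genes were measured and 4 of them were lower in the mutant (median -2.04), and 29 of the 156 mutant and 83 of the 309 wildtype cells carried 1. Their part in the Bmp2 value was not tested. The 156 mutant cells with at most 1 placode gene had 6 Bmp2 UMIs, 1.43 CPM, against 87 UMIs and 14.53 CPM in the 309 wildtype cells, a log2 ratio of -3.34 (-4.83 to -2.16). With 0 placode genes the levels were 1.78 CPM in mutant and 10.6 CPM in wildtype cells, a log2 ratio of -2.58. The wildtype level was 29.0, 43.4, 124 and 202 CPM at 1, 2, 3 and 4 to 8 placode genes. At equal depth 1.28% of mutant and 8.09% of wildtype cells without placode genes had a Bmp2 UMI, and 2.56% and 16.5% without thinning. In these cells 12.3% of 11063 genes were called lower and 7.36% higher, and of 6 measured members 3 were lower, 1 was higher and 2 lay between.

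Bmp7 was the other placode ligand, but without the same difference outside the placode. Wildtype placode cells had 86.7 CPM, 2.05-fold the cells without placode genes. The whole epidermis had 39.1 CPM in mutant and 55.7 CPM in wildtype cells (-0.51, -0.77 to -0.26), and cells without placode genes had 38.2 and 42.3 CPM (-0.14, -0.44 to 0.15). At 0 placode genes the levels were 36.7 CPM in mutant and 36.5 CPM in wildtype cells. Of the 79 wildtype placode cells with a Bmp2 UMI, 35 also had Bmp7, which 55 of the 140 carried.

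Sostdc1 and Fst had the opposite layout from Bmp2 in the wildtype epidermis, low in placode cells and high in cells without placode genes. Sostdc1 was at 370, 366, 137, 101 and 67.0 CPM at 0, 1, 2, 3 and 4 to 8 placode genes, and Fst at 64.7, 57.3, 27.7, 20.7 and 7.45 CPM. Cells without placode genes had 200.5 CPM of Sostdc1 in mutant and 370 CPM in wildtype skin, from 839 and 2212 UMIs, a log2 ratio of -0.88 (-1.0 to -0.77). Fst was at 86.3 CPM in mutant and 63.2 CPM in wildtype cells of that class, a log2 ratio of 0.45 (0.24 to 0.66). Over the whole epidermis, which includes the wildtype placode cells, Sostdc1 was at 197 and 277 CPM (-0.49, -0.61 to -0.38) and Fst at 84.9 and 47.6 CPM (0.84, 0.63 to 1.04).

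At equal depth, 52.6% of mutant (44.4 to 60.6%) and 64.4% of wildtype cells without placode genes (58.8 to 69.7%) had a Sostdc1 UMI, while without thinning the shares were 82.7% and 82.2%. Erythroid cells gave 0.465% and 0.427% at equal depth. For Fst the shares were 28.2% and 25.9% at equal depth, with overlapping intervals, and 60.9% and 48.5% without thinning. Sostdc1 was the most abundant member in epidermis without placode genes in both libraries. Its UMIs in the epidermis were 14.1% of all Sostdc1 UMIs in the mutant library and 41.7% in the wildtype library, shares that the number of epidermal cells also sets.

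Bmp4 and Bambi were scarce in the epidermis. Bmp4 had 21 mutant and 88 wildtype UMIs, 4.89 and 9.76 CPM, a log2 ratio of -1.0 (-1.76 to -0.30), and -1.11 (-1.90 to -0.38) in cells without placode genes. All 9 fibroblast markers were detected in epidermal cells of both libraries, summed to 1494 CPM in mutant and 2290.4 CPM in wildtype cells, against 21989.7 and 15679 CPM in the dermis, and their part in the Bmp4 value was not tested. With at most 1% collagen UMIs per cell, which left out 5 mutant and 11 wildtype cells, the epidermal Bmp4 log2 ratio was -1.25. Bambi had 21 and 17 UMIs in cells without placode genes, a log2 ratio of 0.82 (-0.17 to 1.83) that turned to -0.34 when cells were thinned to 6000 UMIs. Bmp3, Bmp5, Grem1 and Nog each had under 20 UMIs in the epidermis of both libraries together, and wildtype placode cells had no UMI of Bmp3, Grem1 or Nog, a limit of 1.44 CPM at 3 counts.

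Other cell types held large shares of several antagonists. Clusters were called by their markers, among them muscle, Schwann, endothelial, mural (vessel wall), macrophage and erythroid cells. Of the members, Fst was the highest in Schwann cells, the glia of peripheral nerves, at 278 CPM in mutant and 335 CPM in wildtype cells, from 1359 and 1018 UMIs, a log2 ratio of -0.27. At equal depth 64.5% of mutant and 68.8% of wildtype Schwann cells had a Fst UMI, and 64.1% and 75.4% without thinning. They held 22.8% of all mutant and 27.8% of all wildtype Fst UMIs. Sostdc1 in Schwann cells was at 178 and 132 CPM, a log2 ratio of 0.43, above its dermal level in both libraries.

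**Figure D4:**
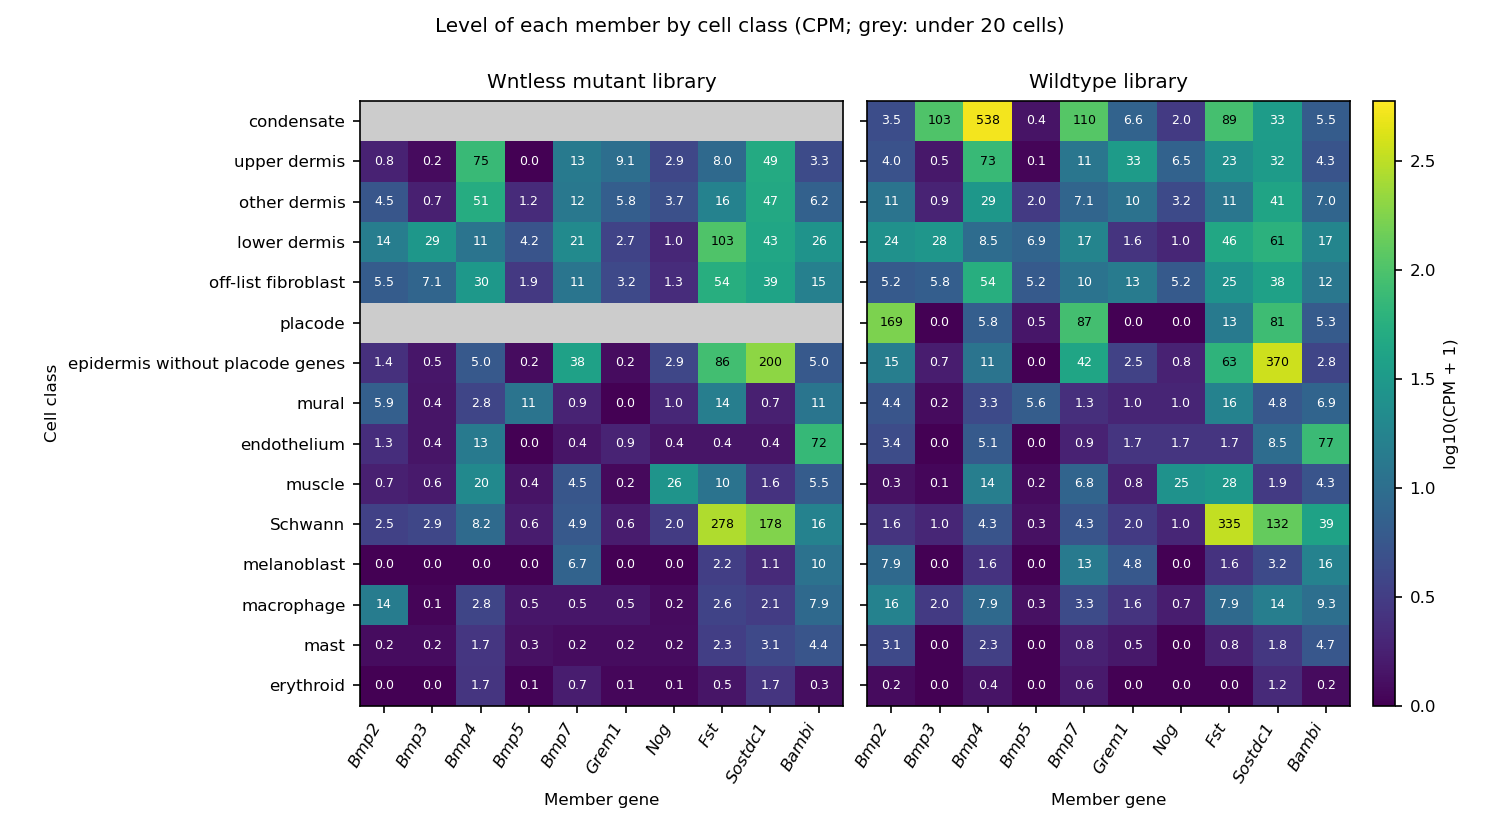
Level in CPM of the 10 members (columns) in 15 cell classes (rows), mutant library left and wildtype library right, coloured on a log10(CPM + 1) scale, with classes of under 20 cells in grey. Bmp4 was highest in wildtype condensate at 538 CPM, Bmp2 in wildtype placode cells at 169 CPM, Nog in muscle at 26.2 CPM in mutant and 25.1 CPM in wildtype cells, and Bambi in endothelium at 71.9 and 76.9 CPM.

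Nog had its highest level in muscle cells in both libraries. It was at 26.2 CPM in mutant and 25.1 CPM in wildtype cells, from 319 and 233 UMIs, a log2 ratio of 0.06, and muscle held 54.9% of all mutant and 43.0% of all wildtype Nog UMIs. The whole of it lay in the muscle cluster led by Msc and Pax7, genes of early muscle precursors, at 30.7 and 31.7 CPM in 411 cells of each library. The cluster led by muscle fibre genes such as Tnnt2 and Mylpf, 70 mutant and 109 wildtype cells, had 0 Nog UMIs. At equal depth 16.3% of mutant and 15% of wildtype muscle cells had a Nog UMI (37.0% and 30% without thinning), against 0 of 1291 mutant and 0 of 468 wildtype erythroid cells, which allow up to 0.232% and 0.641%.

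Fst in muscle was lower in the mutant library in both clusters. Muscle as a whole had 10.4 CPM in mutant and 28.3 CPM in wildtype cells, from 127 and 262 UMIs, a log2 ratio of -1.44. The cluster led by Msc and Pax7 had 11.2 and 25.6 CPM, and that led by fibre genes 5.61 and 38.4 CPM. At equal depth 4.66% of mutant (2.94 to 6.97%) and 11.5% of wildtype muscle cells (8.82 to 14.6%) had a Fst UMI, and 11.4% and 18.8% without thinning. Bmp4 in muscle was at 19.7 CPM in mutant and 14.46 CPM in wildtype cells, and Bmp7 at 4.51 and 6.80 CPM.

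Bambi was highest in endothelium, at 71.9 CPM in mutant and 76.9 CPM in wildtype cells, from 163 and 90 UMIs, a log2 ratio of -0.10. At equal depth 39.2% of mutant and 37.7% of wildtype endothelial cells had a Bambi UMI, and 67.7% and 63.1% without thinning. In Schwann cells Bambi was at 16.2 CPM in mutant and 38.8 CPM in wildtype cells, from 79 and 118 UMIs, a log2 ratio of -1.26 (-1.69 to -0.84). The share of Schwann cells with a UMI was 9.16% in the mutant (5.90 to 13.4%) and 26.1% in the wildtype library (20.6 to 32.2%), and 17.9% and 30.4% without thinning. Mural cells had 11.0 and 6.89 CPM, a log2 ratio of 0.68.

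Bmp5 was mostly a gene of lower dermis and mural cells. Mural cells had 10.7 CPM in mutant and 5.55 CPM in wildtype cells, from 73 and 29 UMIs, a log2 ratio of 0.95 (0.31 to 1.62), and held 26.4% of all mutant and 14.0% of all wildtype Bmp5 UMIs. At equal depth 8.68% of mutant (5.45 to 13.0%) and 4.72% of wildtype mural cells (2.38 to 8.29%) had a UMI, with overlapping intervals, and 23.5% and 10.5% without thinning. The sign was the reverse of that in lower dermis, and the difference between the classes was not tested.

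Macrophages were a further site of Bmp2 beside the dermis and the wildtype epidermis. They had 13.7 CPM in mutant and 16.0 CPM in wildtype cells, from 140 and 98 UMIs, a log2 ratio of -0.23, and held 16.9% of all mutant and 7.10% of all wildtype Bmp2 UMIs. At equal depth 6.07% of mutant and 8.54% of wildtype macrophages had a Bmp2 UMI, against 0 of 1291 mutant and 0 of 468 wildtype erythroid cells, and 19.8% and 17.4% without thinning. Bmp4, Fst and Sostdc1 stood lower in mutant macrophages at low levels, with Sostdc1 at 2.15 CPM in mutant and 14.2 CPM in wildtype cells. Markers of other cell types moved with them in these macrophages. The 13 epidermal markers summed to 17.1 CPM in mutant cells (10 of 13 detected) and 143 CPM in wildtype cells (13 of 13), and the 9 fibroblast markers, all detected in both, to 1409 and 2510.5 CPM. Their part in these low values was not tested.

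**Figure D5:**
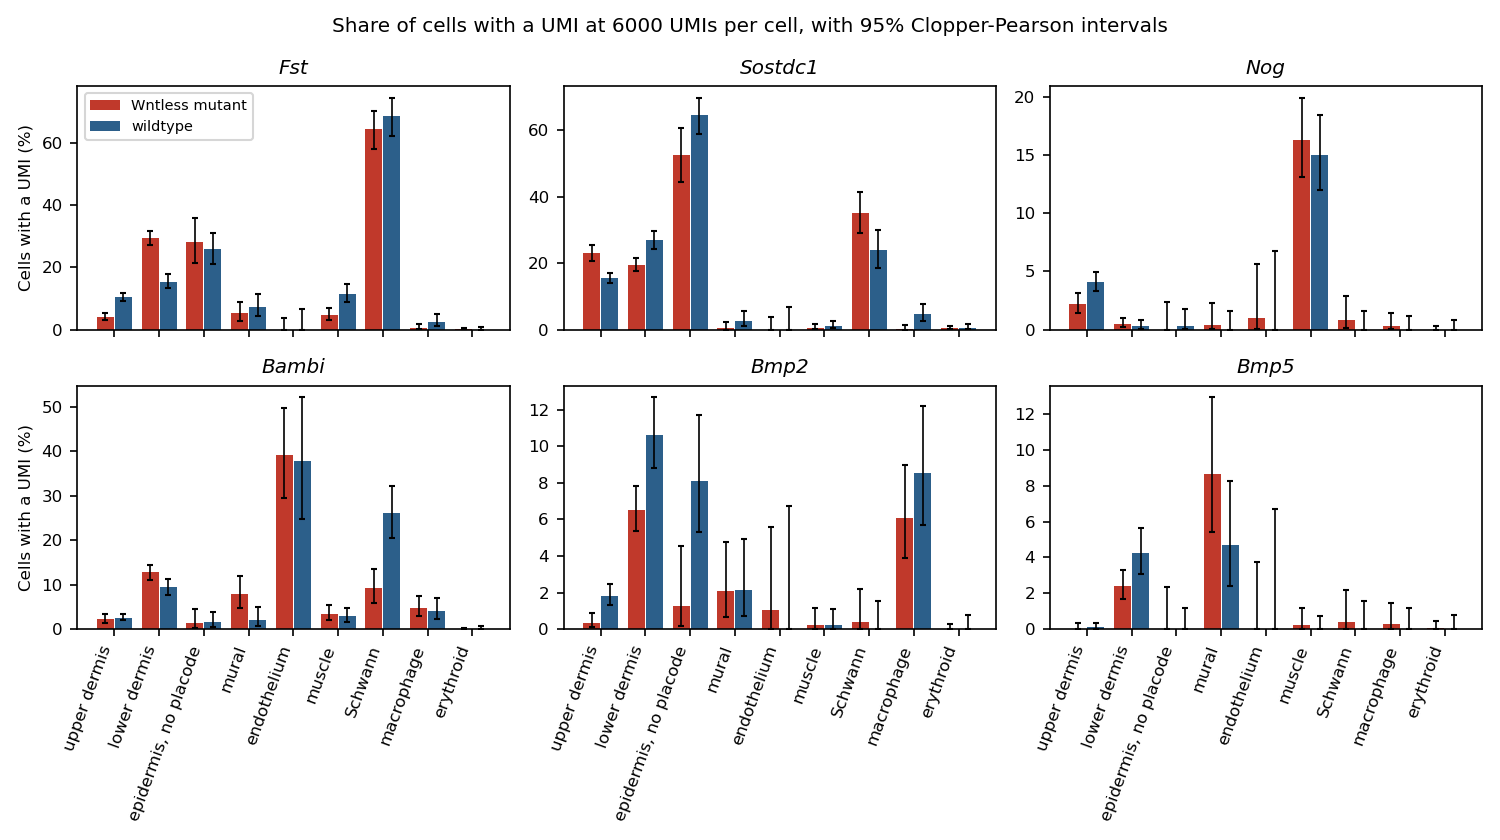
Share of cells with a UMI of 6 members after thinning each cell to 6000 UMIs, by cell class, in the mutant (red) and wildtype (blue) libraries, with 95% Clopper-Pearson intervals. Fst was detected in 64.5% of mutant and 68.8% of wildtype Schwann cells and Bambi in 39.2% and 37.7% of endothelial cells, while erythroid cells stayed under 1%.

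The other genes of the pathway were counted by role. Of 10 BMP response genes 9 were measured in the dermis, 5 were lower, 0 were higher and the median was -0.63, beside 5.64% lower, 10.9% higher and a median of 0.03 for all genes. Hey1, a transcriptional repressor, was at 0.370 CPM in mutant and 1.99 CPM in wildtype cells, a log2 ratio of -2.43, and Atoh8, a transcription factor, at 3.77 and 6.52 CPM, a log2 ratio of -0.79. In upper cells 4 of 8 measured response genes were lower with a median of -0.84, where 6.51% of all genes were lower. There Id1, an inhibitor of basic helix-loop-helix factors, was at 78.1 and 241 CPM, a log2 ratio of -1.63. In lower cells 0 of 7 were lower, where 2.80% of all genes were, and the median was 0.07, with Id1 at 146 CPM in mutant and 139 CPM in wildtype cells.

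Of 16 other antagonists 14 were measured in the dermis, 4 higher and 2 lower with a median of 0.12, where 10.9% of all genes were higher and 5.64% lower. Smoc1, a matrix protein that inhibits BMP signalling, was at 0.641 CPM in mutant and 6.38 CPM in wildtype cells, a log2 ratio of -3.32. Bmper, which binds BMPs outside the cell, was at 4.75 and 2.13 CPM, a log2 ratio of 1.16, and Chrdl1, a chordin-like antagonist, at 3.95 and 1.94 CPM, a log2 ratio of 1.03. Of 14 other ligands 6 were measured, 3 higher and 0 lower with a median of 0.53, and Gdf10, a relative of Bmp3, was at 28.5 CPM in mutant and 12.9 CPM in wildtype cells, a log2 ratio of 1.14.

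In the dermis, where 10.9% of all genes were higher and 5.64% lower, 10 of 11 receptors and co-receptors were measured. Of these, 1 was higher and 0 were lower, with a median of 0.21. The 1 higher was Bmpr1b, a type I receptor, at 0.94. All 4 Smads lay between, with a median of -0.02 and Smad1, which carries the BMP signal, at 50.4 and 66.6 CPM. Of 5 proteases that process BMPs or their antagonists, 1 was higher, Pcsk6, which cleaves ligand precursors, at 72.8 CPM in mutant and 46.3 CPM in wildtype cells, a log2 ratio of 0.65.

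In the epidermis, 4 of 8 measured response genes were lower and 2 higher, with a median of -0.57, beside 15.8% lower, 7.72% higher and a median of -0.09 for all genes. Smad7, an inhibitory Smad, was at 6.05 CPM in mutant and 18.4 CPM in wildtype cells, a log2 ratio of -1.61, while Id4 was at 6.98 and 4.32 CPM, a log2 ratio of 0.69. Of 10 measured receptors and co-receptors 2 were lower and 1 higher (median -0.08), with Acvr1, a type I receptor, at 3.49 and 7.43 CPM and Rgma, a BMP co-receptor, at 49.1 and 25.2 CPM. Of 8 other antagonists 2 were lower and 0 higher (median 0.06), of 3 other ligands 2 were lower, and of 5 proteases 2 were lower and 1 higher. All 3 measured Smads lay between.

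The genes whose wildtype levels most resembled a member's over 15 cell classes were found by Pearson correlation of log2(CPM + 10) over 12065 genes, as a description without a test, since all classes share 1 library. Bmp4 was nearest to Cpne5, Sphkap and Lama1, each at 0.98, and Bmp7 to Rnf182 at 0.94. Bmp2 was nearest to Kcnk1 at 0.96 and Bmp3 to Insyn1, Fgf10 and Lepr at 0.93. Among the antagonists, Grem1 was nearest to Hmx1 at 0.97, Fst to Epb41l4b at 0.90 and Sostdc1 to Flrt1 at 0.91. Bambi was nearest to Kbtbd11 and Lrrc8c at 0.91, and Bmp5 to Ntrk2 and Sema5b at 0.96.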

How the data were processed

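Skin cells of 1 Wntless mutant and 1 wildtype library were profiled. The deposited matrices hold UMI counts per gene and barcode, which per the file headers come from Cell Ranger 6.1.2. The submitters' processing notes list mm10 and Seurat. Other deposited files give the names of barcodes and genes, and the authors' lists of dermal barcodes do not state how cells were chosen (listed cells had 1002 to 5982 genes and at most 9.83% mitochondrial UMIs). Depth was 159841679 mutant and 112593376 wildtype UMIs.

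All barcodes were clustered together in scanpy 1.11.5 (10000 UMIs per cell, 2000 variable genes, 30 components, 15 neighbours, Leiden resolution 0.5 in leidenalg 0.10.2). The clustering left out 70 genes, which were the 10 members and the other listed genes of the BMP pathway. The core condensate and core placode genes were not left out. A cluster was named from at least 3 markers among its top 50 genes. An otherwise unnamed cluster with most of its cells on the authors' dermal lists was called fibroblast. Scrublet called 165 of 7794 mutant barcodes (2.12%) and 222 of 8093 wildtype barcodes (2.74%). These stayed in, and leaving out the top 8% of scores was an alternative.

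UMIs were summed per class and library and divided by the class total (CPM), with exact Poisson intervals. Ratios have exact conditional binomial intervals and were made where both libraries had at least 20 cells. A gene with at least 20 UMIs over both libraries was measured, and called at 1.5-fold. Shares were taken after thinning each cell to 6000 UMIs, which 4910 of 5028 mutant and 5040 of 5300 wildtype dermal cells and 159 of 172 and 501 of 552 epidermal cells reached, and have Clopper-Pearson intervals. Shares without thinning cover every cell of the class, shallower ones included. A count of 0 allows 3 counts. The computation was tested on simulated data. The genes, lists and cell definitions were chosen with earlier results of these data known. Pathway genes named were up to 4 per list, those farthest from 0 in log2 ratio in dermis or epidermis among genes of 50 UMIs or more, and up to 3 per member by likeness among genes with 200 or more UMIs. Some genes that this rule names are not reported here. Coordinates are 1-based from GENCODE mouse release 21, in which all 10 members were found with 0 same-strand overlaps. Alternatives covered scaling, means over cells, thinning, cell filters, doublets, UMI minimums, clustering and class definitions. Python 3.11.15, numpy 2.4.6, scipy 1.17.1, pandas 2.3.3 and matplotlib 3.10.9 were used.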

Additional observations from a re-analysis of the deposited data

Results flagged for a closer look

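The libraries differed by at least 1.5-fold in opposite directions between cell classes, with counting intervals that left out 0 and at least 5 CPM in 1 of the libraries, for 6 members. In each case the difference between the classes was not tested, since there is 1 library per genotype. All values are log2 ratios of mutant over wildtype level.

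Fst had log2 ratios of -1.54 in upper dermis, -1.44 in muscle and -1.58 in macrophages, against 1.16 in lower dermis. Bmp4 was at -1.11 in epidermis without placode genes and -1.47 in macrophages, and at 0.85 in dermal cells neither upper nor lower, 0.94 in Schwann cells and 1.32 in endothelium. The endothelial value rests on 29 mutant and 6 wildtype UMIs, and the Schwann value on 40 and 13, with an interval from 0.003 to 1.96. The 9 fibroblast markers, all detected, summed to 6155 CPM in mutant and 3904 CPM in wildtype Schwann cells, and their part in that value was not tested. Bmp7 was at -0.59 in muscle and 0.74 in dermal cells neither upper nor lower. Bmp5 was at -0.71 in lower dermis and 0.95 in mural cells. Bambi was at -1.26 in Schwann cells and 0.68 in mural cells. Sostdc1 was at -0.88 in epidermis without placode genes and -2.73 in macrophages, and at 0.59 in upper dermis. In macrophages the epidermal markers summed to 17.1 CPM in mutant and 143 CPM in wildtype cells, and the fibroblast markers to 1409 and 2510.5 CPM. Fibroblast markers in epidermis without placode genes summed to 1524 CPM in mutant and 2510.5 CPM in wildtype cells. The part of these markers in the macrophage and epidermal values was not tested.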

How the results depend on the processing

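Of 214 log2 ratios recomputed under other settings, 188 stayed within the counting interval, 22 moved outside it, and 4 of genes called at 1.5-fold changed sign. Those 4 were Bmp4 in the dermis under 3 settings and Bambi in epidermis without placode genes, at -0.34 with cells thinned to 6000 UMIs. Bmp4 was at 0.16 without cells of 2 or more core condensate genes and at 0.33 with upper, lower and other cells weighted alike. It was at 0.24 without the cluster led by condensate genes (a setting added after seeing the data). The equal weighting also left out the condensate cells and cells under 6000 UMIs. Another 9 ratios, of genes not called, changed sign as well: Bmp3 and Bmp7 in the dermis under the same 3 settings (to 0.69 and 0.57 at most), Bambi in the epidermis with thinned cells (-1.04), and Bmp7 in epidermis without placode genes (0.05 at most, with thinned cells or with 0 placode genes). Of 70 counts of members called, 58 stayed within 1.5 times. In the dermis 2 members were called higher, which became 0 as means over cells and 1 with thinned cells, without the top 8% of doublet scores, with the 3 dermal classes weighted alike, or without the condensate-led cluster. In the epidermis 1 was called higher, which became 2 with no UMI minimum or with 1000 variable genes. In epidermis without placode genes 3 were called lower, which became 5 with no minimum and 1 at a minimum of 100 UMIs, and 1 was called higher, which became 0 with thinned cells or that minimum and 2 with no minimum. Over the settings the log2 ratio ran from -1.84 to -1.34 for Grem1, from 0.56 to 0.96 for Fst and from -0.79 to -0.48 for Nog in the dermis, from -6.07 to -4.99 for Bmp2 in the epidermis and from -1.03 to -0.81 for Sostdc1 in epidermis without placode genes. Other definitions left 39 of 70 levels and taking all cells without thinning left 163 of 330 shares inside their intervals. The cause of these moves was not tested. No paired analysis was possible because there is 1 library per genotype. Depth limits Bmp3, Bmp5, Grem1 and Nog in the epidermis.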
